A study of Mus musculus with 308 samples.

Results

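The genes described here are 45 that mark or serve T cells and natural killer (NK) cells: the chains and signalling proteins of the T cell receptor, its coreceptors and costimulatory molecules, the lineage transcription factors, cytokine receptors, cytotoxic granule proteins, NK receptors and the products Ccl5 and Ifng. A gene was followed through the probe sets for which it is the only symbol in the array's gene table. In all, 41 of the 45 genes had such a probe set, 61 probe sets together, among 17097 genes named the same way. Lck, Tcf7, Il7r and Ccr7 had none and are unnamed here. Each of the 41 genes was represented by its probe set with the highest mean, and 12 of them had more than 1 to choose from.

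The samples come from C57BL/6 mice given a fumarate or its vehicle. Dimethyl fumarate (DMF) is an oral drug for psoriasis and multiple sclerosis, and monoethyl fumarate (MEF) salts accompany it in one of its formulations. The vehicle group received 0.8% hydroxypropyl methylcellulose. DMF100 and DMF179.2 name the groups given DMF alone at a dose of 100 mg/kg or of 179.2 mg/kg. The other groups received the calcium, magnesium and zinc salts of MEF at 79.2 mg/kg (MEF79.2), or DMF at 100 mg/kg together with MEF salts at 79.2 mg/kg (the combination, equal in total mass to DMF179.2). Dosing was daily for 10 days, and 12 h passed between the final dose and the collection of tissue. A further group is labelled Nav, and nothing in the labels says what it received. Each sample is 1 array of whole-tissue RNA, and blood, spleen, inguinal lymph node, mesenteric lymph node and jejunum gave 216 arrays in all. Vehicle had 7 arrays of blood and 8 of each other tissue. With tissues in the order blood, spleen, inguinal node, mesenteric node and jejunum, DMF100 had 7, 8, 8, 8 and 6 arrays, DMF179.2 had 8, 8, 6, 8 and 7, MEF79.2 had 5, 7, 6, 7 and 7, the combination had 6, 8, 8, 6 and 8, and Nav had 5, 8, 8, 7 and 7. Age and sex are not in the labels, and arrays of a group are separate by their title numbers alone, so a p-value measures the spread between arrays.

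A T cell recognises antigen through a receptor whose signal is carried by the CD3 chains (Cd3d, Cd3e, Cd3g and Cd247), with Cd4 or Cd8a and Cd8b1 as coreceptors, and is passed on through Zap70, Lat and further adaptors. Cd28 and Icos add a costimulatory signal, and Ctla4 opposes it. NK cells carry no antigen receptor of this kind and read activating and inhibitory receptors such as Ncr1, Klrk1 and Klrd1, but they share with CD8 T cells the killing machinery of perforin (Prf1) and granzymes. A fall of blood lymphocytes is a known effect of DMF in some patients. In whole-tissue RNA, fewer cells of a type and less RNA of a gene per cell cannot be told apart.

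Depth in the sequencing sense does not exist for arrays, and the number of arrays limits the precision. Values are deposited log2 expression values, each tissue was normalized apart from the others, and between 19.6 and 23.3% of the values of a tissue lay at its lowest value. Only genes that exceeded the 50th percentile of all values of a tissue in 5 or more of its arrays entered the test for that tissue. The lowest median correlation of an array with the others of its tissue was 0.940, in the mesenteric node, and no 2 arrays were identical. In spleen and in blood the least correlated array was Nav 40, at 0.959 in both. Of the intestinal epithelium markers, 8 of 10 passed the filter in jejunum and 3 or 4 of 10 elsewhere. Of the B cell markers, 11 or 12 of 14 passed in each of the 5 tissues.

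More T and NK cell genes passed the filter in blood, spleen and both nodes than in jejunum. The filter passed 40 of the 41 genes in blood, 36 in spleen, 37 in each node and 19 in jejunum. In blood Lef1 and Gzmk passed with vehicle means of 3.99 and 4.03. They followed the mean of the other members there at a correlation of 0.06 and 0.05. The filter level was 3.38 in blood, 5.48 in spleen, 5.44 in inguinal node, 5.24 in mesenteric node and 4.89 in jejunum, so passing it was easier in blood. Cd40lg, the ligand of CD40 on activated helper T cells, was below it everywhere, and in spleen the 8 vehicle arrays read between 2.14 and 2.24. Lef1, Gzmb, Gzmk and Ifng were also below it in spleen, and Gzmk, Ncr1 and Ifng in both nodes. In jejunum the genes that passed were Cd3d, Cd3e, Cd3g, Cd8a, Lat, Cd2, Icos, Ctla4, Bcl11b, Foxp3, Il2rb, Cxcr3, Gzma, Gzmb, Gzmk, Prf1, Nkg7, Klrd1 and Ccl5. Cd4, Cd247 and Cd28 did not pass there. Ncr1 lay at the tissue's lowest value, 2.13, in all 8 vehicle arrays of jejunum. Foxp3, the factor of regulatory T cells, read 6.25 as its median in each of the 6 groups of jejunum, with a residual SD of 0.036, so it passed the filter without varying.

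These genes varied together from array to array within a group more than genes at large. After the group means were removed, the median pairwise correlation among members was 0.28 in blood (38 arrays), 0.50 in spleen (47 arrays), 0.16 in inguinal node (44 arrays), 0.25 in mesenteric node (44 arrays) and 0.49 in jejunum (43 arrays), against 0.01 to 0.05 over all tested genes. The arrays of a tissue share their normalization, and these correlations are descriptions. The residual SD of a member, as a median, was 0.26 in blood, 0.22 in spleen, 0.17 in both nodes and 0.58 in jejunum, where the median gene had 0.18. The most variable members of jejunum were Gzmb (residual SD 0.94), Cd2 (0.87) and Gzma (0.79). In jejunum Cd3g, Cd3e, Nkg7, Cd8a and Ccl5 each followed the mean of the other members at a correlation between 0.94 and 0.96. Prf1 did so there at 0.01 and Bcl11b at 0.19.

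**Figure D1:**
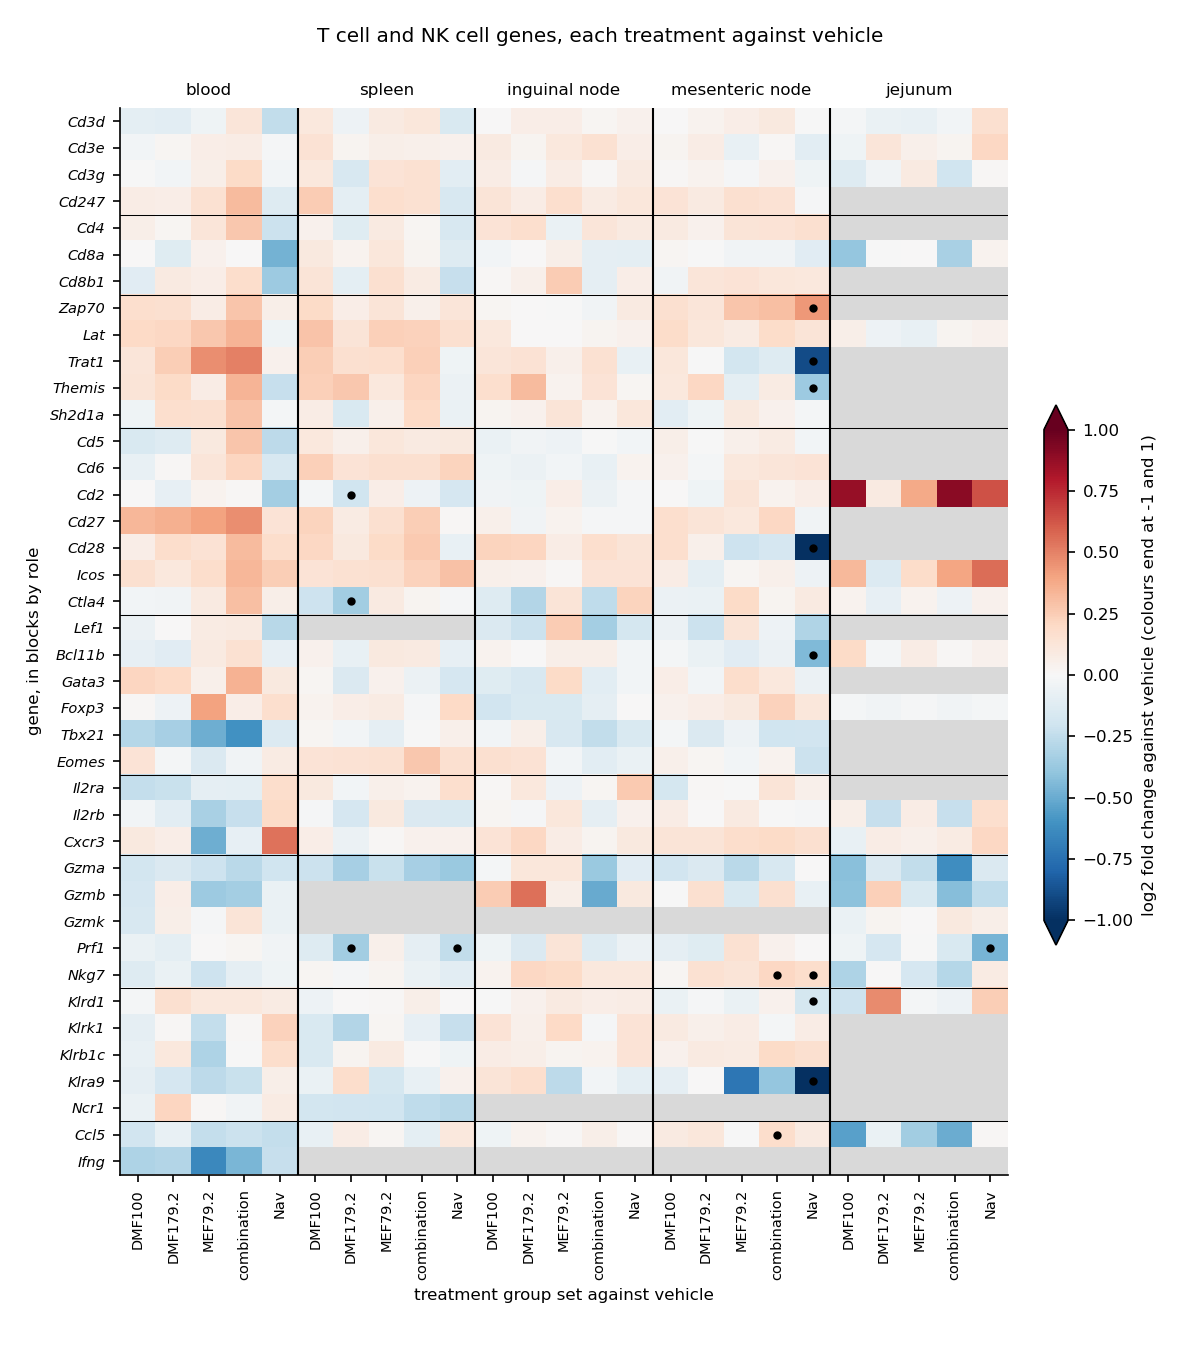
Log2 fold change of each member against vehicle in each tissue and treatment group, with genes in blocks by role; grey cells did not pass the filter, black dots mark an adjusted p under 0.05, and colours end at -1 and 1. Dots appear in spleen, mesenteric node and jejunum and in none of the columns of blood and inguinal node. The deepest blue of the dotted cells is Klra9 in mesenteric node under Nav, at -1.68, where both group means lie below the filter level.

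Against vehicle, most members did not change in most comparisons. DMF100 and MEF79.2 gave 0 called members in all 5 tissues by limma at an adjusted p under 0.05, although with array weights DMF100 gave 5 in spleen (816 genes in place of 88) and 1 in jejunum (521 genes in place of 108), and MEF79.2 gave 1 in mesenteric node after quantile normalization or with the mean of probe sets (560 and 190 genes), and blood and inguinal node gave 0 under every treatment. The calls came from spleen under DMF179.2 (3 fell of 36) and Nav (1 fell), from mesenteric node under the combination (2 rose of 37) and Nav (2 rose and 6 fell), and from jejunum under Nav (1 fell of 19). The comparisons of a tissue share their vehicle arrays and are given side by side.

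In blood, no T or NK cell gene was called under any treatment, and the estimates were spread most widely under the combination and MEF79.2. Of all 10378 tested genes, DMF100 called 0.26%, DMF179.2 1.34%, MEF79.2 0%, the combination 0% and Nav 0.0193% (0.00964% as risen), and 0 of 40 members were among them in each. At an unadjusted p under 0.05 there were 0, 2, 4, 10 and 6 members in the same order, beside 1046, 1651, 1149, 775 and 1356 of all genes. The members of blood varied together from array to array (median correlation 0.28), so these are not counts of independent genes. In the 6 combination arrays the mean over members ran from -0.33 to 0.37 relative to vehicle. The median member difference was -0.04 for DMF100, 0.01 for DMF179.2, 0.06 for MEF79.2, 0.10 for the combination and -0.03 for Nav, with the median of all genes between 0.00 and 0.02. The 95% confidence interval lay within 1.5-fold of vehicle for 35 of the 40 members under DMF100 and 34 under DMF179.2 (86.3% and 86.2% of all genes). It did so for 29 under MEF79.2 and 26 under the combination (82.5% and 86.8% of all genes), where Ifng had the lowest estimate of MEF79.2 at -0.65. Ifng is a low reading: it ran from 3.83 to 4.57 under MEF79.2 and from 4.24 to 5.51 in vehicle, and the lowest value of blood is 2.27.

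The CD3 chain Cd3e read from 10.51 to 10.90 in vehicle blood (median 10.80) and from 10.74 to 10.89 under DMF179.2 (median 10.77). The groups overlapped fully, and the difference was 0.02 (95% interval -0.13 to 0.17). The interval of Cd4 was -0.16 to 0.20, that of Cd8a -0.33 to 0.08 and that of Gzma, a granzyme of cytotoxic T and NK cells, -0.42 to 0.13. Ncr1, the NK activating receptor, differed by 0.22 ± 0.20 (SE). Under the combination, 27 of the 40 members had positive estimates. All 5 signalling genes tested in blood (Zap70, Lat, Trat1, Themis and Sh2d1a), all 4 CD3 chains and all 7 costimulatory and surface genes were among them, and none was called. Of the cytotoxic granule and secreted genes, Gzma (-0.27), Gzmb (-0.34), Nkg7 (-0.09), Ccl5 (-0.21) and Ifng (-0.46) had negative estimates. Prf1 (0.02) and Gzmk, with a mean of 4.16 against 4.03 in vehicle, did not. All 3 cytokine and chemokine receptors had negative estimates, and none of these genes was called. Lat, an adaptor downstream of the receptor, was the nearest at 0.34 ± 0.11 (adjusted p = 0.453), and the T-bet gene Tbx21 had the lowest estimate at -0.61 ± 0.23 (adjusted p = 0.580).

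Cd8a was the member nearest to a call in blood, under Nav. The 5 Nav arrays read 9.83, 9.48, 9.74, 9.75 and 9.64, and the 7 vehicle arrays ran from 9.86 to 10.52 with a median of 10.06. The groups did not overlap, and the difference was -0.48 ± 0.11 (adjusted p = 0.0796). How many of all genes were separated in this way in blood is not given here, and 0.0193% were called. Cd8b1, which pairs with Cd8a, differed by -0.37 ± 0.11 (adjusted p = 0.148), and Cd2 by -0.34 ± 0.10 (adjusted p = 0.164). With array weights, 1 member was called in blood under Nav.

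In spleen under DMF179.2, the brighter probe set of Prf1 fell and, by less stable calls, so did Cd2 and Ctla4, while the CD3 chains and coreceptors did not pass the test. The 3 called members of 36 compare with 24.4% of all 10549 genes called in this comparison and 7.54% called as fallen, so the share of members is near the background of fallen genes. The median member difference was -0.02, against 0.04 for all genes, and 5 members had an unadjusted p under 0.05, beside 3949 of all genes. DMF100 called 0.834% of all genes, MEF79.2 0%, the combination 0.0284% and Nav 13.4%.

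Prf1, the pore-forming protein of cytotoxic granules, ran from 8.10 to 8.39 in the 8 vehicle spleens (median 8.25) and from 7.78 to 8.10 in the 8 spleens of DMF179.2 (median 7.89). All 8 treated arrays lay below all vehicle arrays. The share of all genes separated in this way is not given for spleen, where 7.54% were called as fallen. Prf1 fell by 0.35 ± 0.06 (1.27-fold, adjusted p = 0.000400). Elsewhere the median was 8.10 (DMF100), 8.28 (MEF79.2), 8.14 (combination) and 8.01 (Nav). Set directly against DMF100, DMF179.2 gave a Prf1 difference of -0.22 ± 0.06 (adjusted p = 0.0449, 2.56% of genes called), and 7 of its 8 arrays lay below every DMF100 array. Against the combination of equal mass the difference was -0.26 ± 0.06 (adjusted p = 0.0175, 5.64% of genes called).

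Cd2, an adhesion receptor of T and NK cells that mouse B cells also carry, ran from 11.65 to 12.08 in vehicle (median 11.91) and from 11.51 to 11.90 under DMF179.2 (median 11.69). Cd2 fell by 0.20 ± 0.07 (adjusted p = 0.0337), with 4 of 8 treated arrays below all vehicle arrays. B cell markers moved with it: 4 of 12 tested fell (Cr2, Fcrla, Spib and Cd79b), and their mean ran from 11.57 to 11.76 under DMF179.2 and from 11.68 to 11.87 in vehicle. Across the 47 spleens the residuals of Cd2 had a correlation of 0.55 with the B cell mean and 0.55 with the other T cell genes, and across 38 blood arrays 0.61 and -0.01; the part of B cells in the Cd2 call was not tested. Ctla4, the inhibitory receptor of activated and regulatory T cells, ran from 8.29 to 9.06 in vehicle (median 8.69) and from 7.95 to 8.76 under DMF179.2 (median 8.39). Ctla4 fell by 0.35 ± 0.12 (adjusted p = 0.0341), again with 4 of 8 arrays outside the vehicle range. Cd3g passed only between the groups of equal mass, where DMF179.2 minus the combination was -0.31 ± 0.09 (adjusted p = 0.0352): the combination ran from 10.96 to 11.38, DMF179.2 from 10.56 to 11.18 and vehicle from 10.79 to 11.22.

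The calls of Cd2 and Ctla4 were lost in several refits, and that of Prf1 in none. Without any 1 of DMF179.2 arrays 21, 22, 23 and 24 or vehicle arrays 1, 2, 3 and 5, Cd2 missed the threshold (adjusted p between 0.0507 and 0.0828). Without any 1 of DMF179.2 arrays 18, 21, 22 and 24 or vehicle arrays 1, 5 and 8, Ctla4 did (adjusted p between 0.0521 and 0.0924). The summed level of red cell precursor genes moved with the treatment: of 15 tested erythroid markers 11 rose, and their mean ran from 9.78 to 10.97 under DMF179.2 and from 6.78 to 10.42 in vehicle. With that mean as a covariate, Prf1 gave -0.32 ± 0.07 (adjusted p = 0.00748), Cd2 gave -0.10 (adjusted p = 0.324) and Ctla4 -0.17 (adjusted p = 0.332), and Themis gave 0.50 (adjusted p = 0.00777). Across the 47 spleens, the residual mean of the members had a correlation of -0.64 with the erythroid mean. Cell cycle genes rose too, 11 of 15, and the 3′ to 5′ difference of the actin control probe sets was 1.60 ± 0.08 (SD, n = 8) under DMF179.2 and 1.38 ± 0.06 (SD, n = 8) in vehicle; the part of both in these calls was not tested.

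The members of spleen that were not called under DMF179.2 had estimates of both signs. Of the 5 receptor signalling genes, 4 had positive estimates, with Themis, a regulator of receptor signal strength, at 0.27 ± 0.12 (adjusted p = 0.0941). Beside Prf1, 2 cytotoxic granule genes were tested, Gzma at -0.33 ± 0.19 (adjusted p = 0.207) and Nkg7 at -0.02. Klrk1, the gene of the NKG2D receptor, was near the threshold at -0.29 ± 0.12 (adjusted p = 0.0574). The 95% intervals were -0.10 to 0.16 for Cd3e, -0.33 to 0.09 for Cd4, -0.12 to 0.19 for Cd8a and -0.46 to 0.08 for Ncr1. In all, 34 of 36 members had an interval within 1.5-fold of vehicle, beside 87.8% of all genes.

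**Figure D2:**
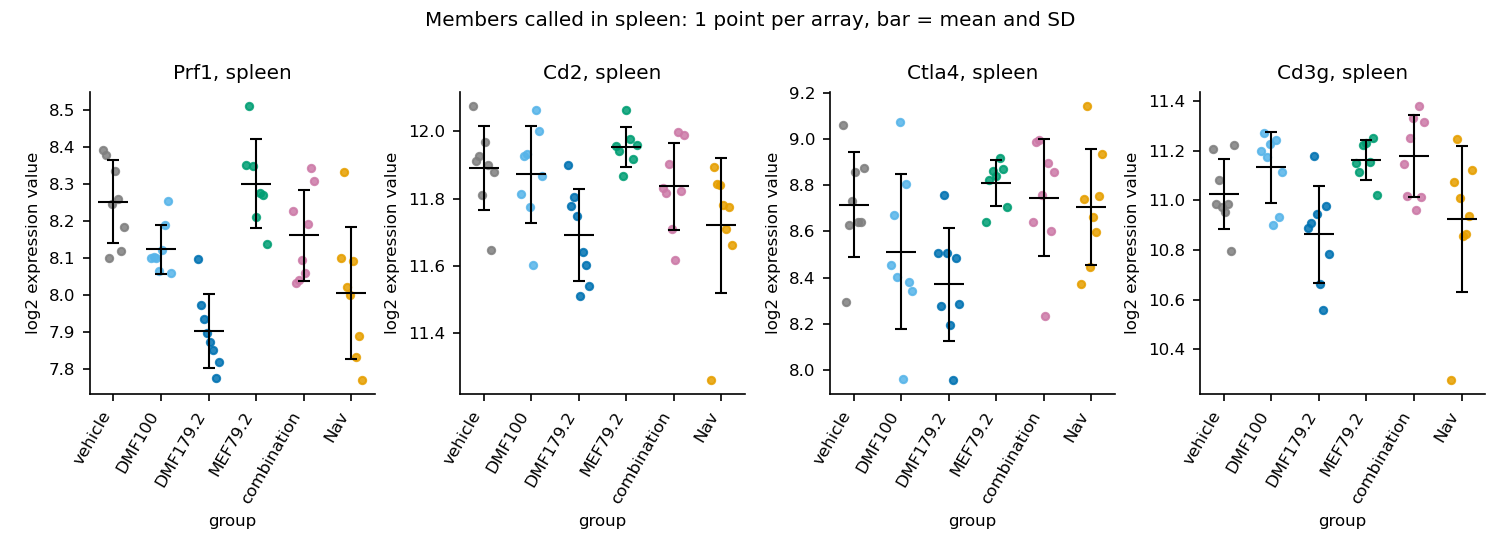
Log2 expression values of Prf1, Cd2, Ctla4 and Cd3g in spleen, 1 point per array, with the mean and SD of each of the 6 groups as bars; the vertical axes do not start at 0. The DMF179.2 points of Prf1 lie between 7.78 and 8.10, below all vehicle points, and in the Cd2 and Cd3g panels 1 Nav point stands apart at 11.26 and 10.27.

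Under Nav, Prf1 was again the called member of spleen. The Nav arrays ran from 7.77 to 8.33 with a median of 8.01, and 6 of 8 lay below all vehicle arrays. Prf1 fell by 0.25 ± 0.06 (adjusted p = 0.0109). 1 array, Nav 40, stood apart in this group, with a mean over members of -0.57 relative to vehicle while the next lowest Nav array had -0.07. Without it, 6 members were called in place of 1: Prf1 fell by 0.26, and Icos, an inducible costimulator, rose by 0.40, Cd6 by 0.34, Lat by 0.26, Foxp3 by 0.22 and Ccl5 by 0.16 (adjusted p between 0.00318 and 0.0499). The calls over all genes went from 1411 to 2259 of 10549, so the members' count again lies below the background. Leaving out Nav 40 also lowered the SE of several members in the shared fit, and DMF179.2 against vehicle then gave 4 called members, with Themis added at 0.27 ± 0.10 (adjusted p = 0.0401), beside 2814 genes in place of 2573. DMF179.2 against DMF100 then gave 3 in place of 1 (Cd247, Cd3g and Prf1), beside 690 genes in place of 270. Against the combination it gave 4 in place of 2 (Cd3g, Prf1, Sh2d1a and Ctla4), beside 961 genes in place of 595.

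The Prf1 values come from the brighter of 2 probe sets, and the pair did not track each other. Their residual correlation was 0.04 across the 47 spleens. The probe set used had a correlation of -0.30 with the other NK cell genes in spleen, -0.30 in inguinal node, -0.34 in mesenteric node and -0.45 in jejunum, and 0.22 in blood. The second one had 0.57 in spleen. Whether the probe set used reports Prf1 RNA was not tested, and each Prf1 value here is that probe set's unless stated. In spleen the second probe set gave -0.29 ± 0.10 under DMF179.2 (adjusted p = 0.0516 over all probe sets) and -0.33 ± 0.10 under Nav (adjusted p = 0.0452), the same sign as the one used. Further members had a second probe set with another result: for Cd4, one that did not follow the T cell genes (correlation 0.01, against 0.83 for the one used) fell by 0.41 under DMF179.2 (adjusted p = 0.0320), and for Bcl11b one fell by 0.46 (adjusted p = 0.0232) while the one used gave -0.07.

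Among the called members of spleen under DMF179.2, against vehicle or the combination, Cd2 had no entry among the upstream sequences used. The sequences upstream of the others, Prf1, Ctla4 and Cd3g, are shown. Each is the 250 bases before the gene's start in GRCm38.p6 as RefSeq gives it, read 5′ to 3′ on the gene's strand, and capitals mark GGAAG, the core bound by ETS factors, or its reverse complement. Prf1 lies at chr10:61297586-61297835 (+ strand), Ctla4 at chr1:60908775-60909024 (+ strand) and Cd3g at chr9:44980432-44980681 (- strand).
Prf1: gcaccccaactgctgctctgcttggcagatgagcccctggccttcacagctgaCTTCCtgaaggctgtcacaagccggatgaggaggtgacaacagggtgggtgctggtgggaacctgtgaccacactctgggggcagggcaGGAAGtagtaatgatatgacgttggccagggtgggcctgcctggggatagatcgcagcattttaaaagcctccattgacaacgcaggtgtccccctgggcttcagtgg
Ctla4: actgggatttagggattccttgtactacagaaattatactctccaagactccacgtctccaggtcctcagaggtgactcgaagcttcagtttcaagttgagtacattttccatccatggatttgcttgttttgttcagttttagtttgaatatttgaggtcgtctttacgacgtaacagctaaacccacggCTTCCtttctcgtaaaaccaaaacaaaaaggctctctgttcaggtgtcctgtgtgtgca
Cd3g: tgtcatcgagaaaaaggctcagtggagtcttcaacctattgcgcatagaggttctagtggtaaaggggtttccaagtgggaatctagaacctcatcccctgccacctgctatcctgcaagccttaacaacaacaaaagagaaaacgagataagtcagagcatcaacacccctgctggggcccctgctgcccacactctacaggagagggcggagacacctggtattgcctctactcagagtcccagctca
The Prf1 window held 2 ETS cores, 1 RUNX core (TGTGGT) and 1 antioxidant response core (TGACNNNGC), the Ctla4 window held 1 ETS core, and the Cd3g window held none of the 3 motifs, searched on both strands with overlaps allowed. Entries matched 33 of the 45 members, with 43 windows. Of these, 30 held the ETS core, 12 the RUNX core and 2 the antioxidant response core (Prf1 and Zap70). Over all 32851 windows the shares were 64.1%, 14.05% and 10.2%. A match describes letters and not binding.

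In inguinal node no member was called under any treatment. DMF100 called 1.69% of all 10559 genes, DMF179.2 0.379%, MEF79.2 0.00947%, the combination 0.0474% and Nav 0.0189%. By limma at an unadjusted p under 0.05 there were 4, 6, 3, 5 and 3 of 37 members, beside 1514, 1177, 1233, 1089 and 1165 of all genes. Under DMF179.2 the median member difference was 0.04 beside 0.03 for all genes, and 34 of 37 intervals lay within 1.5-fold.

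Themis came nearest in inguinal node. Its 6 values under DMF179.2 ran from 10.14 to 10.43 (median 10.27) and the 8 vehicle values from 9.78 to 10.13 (median 9.94), without overlap, and the difference was 0.32 ± 0.08 (adjusted p = 0.0571). The share of all genes without overlap is not given for this node, where 0.379% were called. Under DMF179.2, 1 member was called after quantile normalization (36 genes in all) and 4 with array weights (565 genes in all). Cd4 differed by 0.17 ± 0.06 (adjusted p = 0.172), and Cd3e (0.03) and Cd8a (0.00) by less than their SE. Gzmb, a granzyme that rises on activation, had the highest estimate under DMF179.2 at 0.55 ± 0.26 (adjusted p = 0.419) and the lowest under the combination at -0.50 ± 0.24 (adjusted p = 0.468). The interval of Gzma, -0.52 to 0.75, shows how little its difference was bounded.

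**Figure D3:**
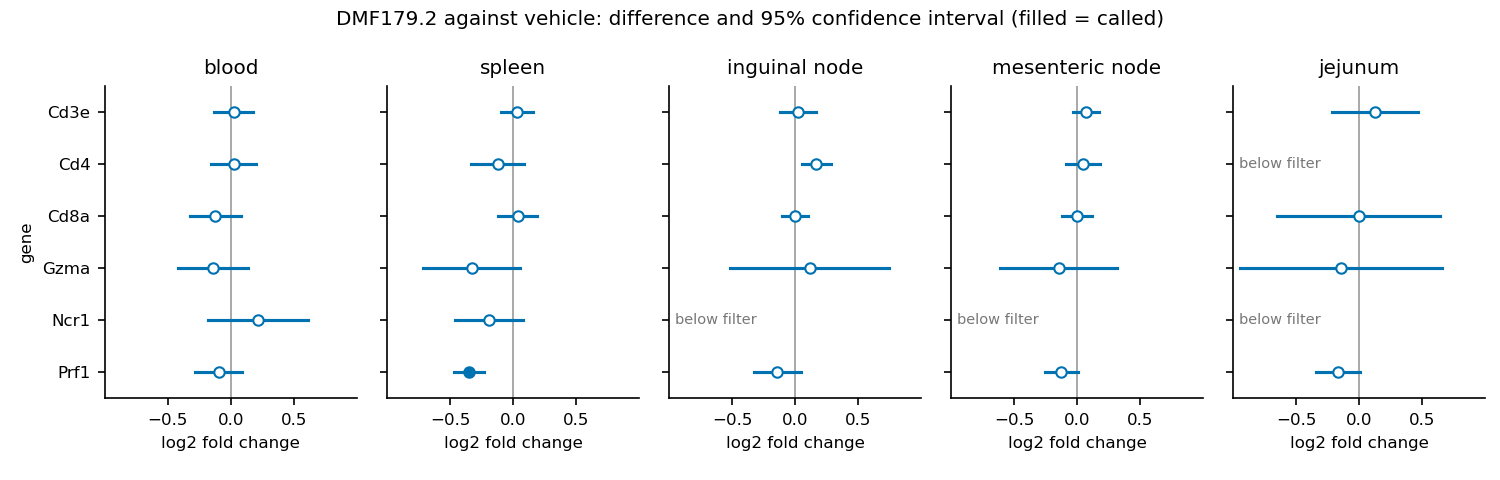
Log2 fold change of DMF179.2 against vehicle with its 95% confidence interval for Cd3e, Cd4, Cd8a, Gzma, Ncr1 and Prf1 in the 5 tissues; a filled point is called. The only filled point is Prf1 in spleen, and the intervals of Cd8a and Gzma are widest in jejunum.

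In mesenteric node, 2 effector genes rose under the combination, and under Nav 2 members rose and 6 fell. DMF100 called 1.85% of all 10671 genes, DMF179.2 7.88%, MEF79.2 4.75%, the combination 12.7% (9.16% as risen) and Nav 50.6% (29.8% as risen and 20.8% as fallen). Both 2 and 8 of 37 members lie below the background, and the 6 that fell are near that of fallen genes. Without DMF179.2 array 23 that treatment called 354 genes in place of 841, and without combination array 36 the combination called 682 in place of 1358. At an unadjusted p under 0.05 there were 3, 3, 6, 7 and 10 members, beside 1527, 2680, 2335, 3347 and 6004 of all genes. The median member difference was 0.05 under the combination and -0.01 under Nav, beside 0.06 and 0.07 for all genes. Under DMF179.2 the estimate was 0.07 for Cd3e, 0.05 for Cd4, 0.00 for Cd8a and -0.15 for Gzma, none of them called.

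Under the combination, Ccl5, a chemokine made by effector T and NK cells, ran from 11.53 to 11.79 (median 11.67) in 6 arrays and from 11.35 to 11.58 (median 11.52) in vehicle. Ccl5 rose by 0.18 ± 0.06 (adjusted p = 0.0384), with 4 of 6 arrays above all vehicle arrays. Nkg7, a cytotoxic granule membrane protein, ran from 10.75 to 10.99 against 10.37 to 10.94 in vehicle and rose by 0.21 ± 0.07 (adjusted p = 0.0437), with 2 of 6 arrays above the vehicle range. Both calls sit at the threshold. Ccl5 lost its call without any 1 of combination arrays 33 to 36 or vehicle arrays 1, 2 and 4 (adjusted p between 0.0606 and 0.0950), and Nkg7 without any 1 of combination arrays 33 to 36 or vehicle arrays 1 to 5 and 7 (adjusted p between 0.0574 and 0.104). Other granule and NK genes of the node did not pass under the combination, with Gzma at -0.16 ± 0.25 and Klrd1 at 0.04 ± 0.07. Genes of other cells moved under the combination too: 2 of 12 monocyte and macrophage markers rose (Cd68 and Cd14), with their mean between 9.69 and 9.90 against 9.48 to 9.78 in vehicle, as did Pf4 of 2 tested platelet markers and Pdgfrb of 9 stromal ones, and 2 of 15 cell cycle genes fell (Aurkb and Ccna2). Their part in the calls of Ccl5 and Nkg7 was not tested.

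Under Nav, 4 members of mesenteric node were lower in all 7 arrays than in any vehicle array. The share of all genes separated in this way is not given here, and 20.8% of them were called as fallen. Cd28, the main costimulatory receptor, ran from 7.10 to 7.86 (median 7.61) against 8.43 to 8.83 in vehicle (median 8.60). Cd28 fell by 1.06 ± 0.12 (2.08-fold, adjusted p = 8.4e-09). Trat1, an adaptor that stabilises the receptor complex, ran from 4.78 to 6.06 (median 5.58) against 6.22 to 6.60 and fell by 0.89 ± 0.14 (adjusted p = 2.2e-06). Bcl11b, a factor that maintains T cell identity, ran from 10.88 to 11.20 against 11.41 to 11.57 and fell by 0.44 ± 0.06 (adjusted p = 1.9e-07). The residuals of this Bcl11b probe set had a correlation of 0.05 with the other T cell genes in that node. Whether its fall reports T cells was not tested. Klra9, an inhibitory Ly49 receptor of NK cells, ran from 2.85 to 3.79 against 4.22 to 5.80 and fell by 1.68 ± 0.27 (adjusted p = 3.3e-06). Both its means, 5.07 in vehicle and 3.39 under Nav, lie below the tissue's filter level of 5.24, and the lowest value is 2.14. No Nav array reached that filter level, so Klra9 entered the test only through arrays of the other groups. Its log2 difference is therefore a rough size, and no linear fold is given. Klra9 belongs to a family of closely related genes, so its probe set may read more than 1 of them.

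**Figure D4:**
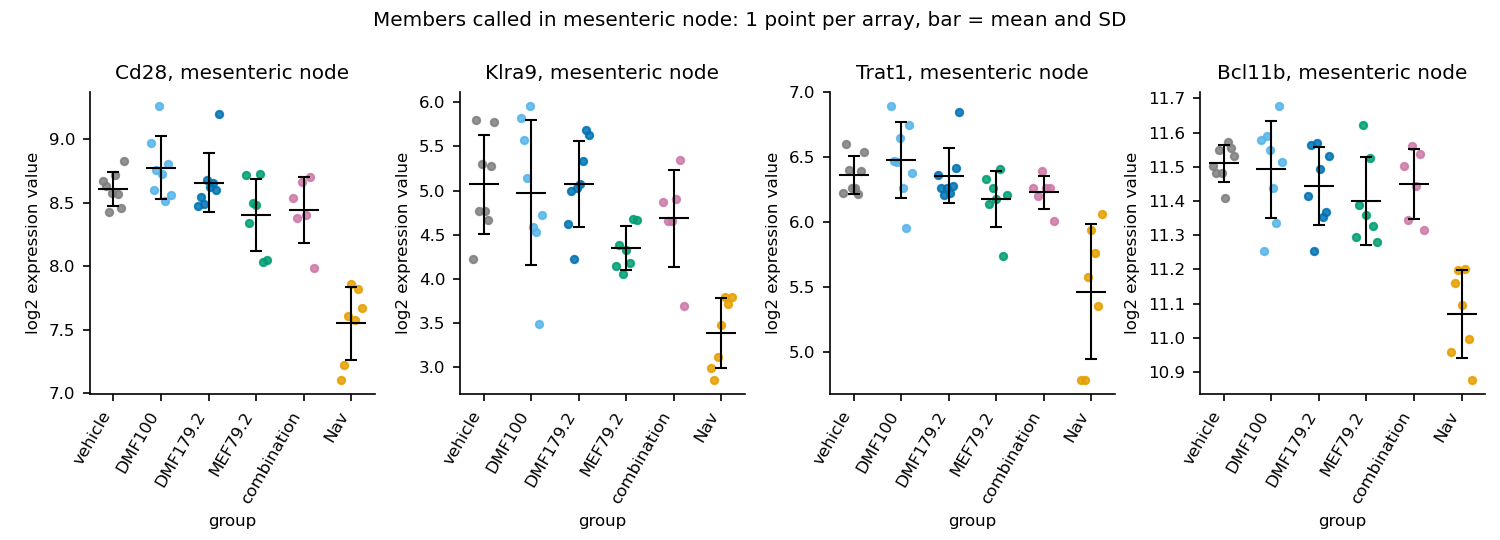
Log2 expression values of Cd28, Klra9, Trat1 and Bcl11b in mesenteric node, 1 point per array, with the mean and SD of each of the 6 groups; the vertical axes do not start at 0. In every panel the 7 Nav points lie below the 8 vehicle points, while the 4 groups given a fumarate overlap vehicle.

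The other called members under Nav overlapped vehicle. Themis fell by 0.36 ± 0.09 (adjusted p = 0.00120) and Klrd1, the gene of CD94, by 0.18 ± 0.06 (adjusted p = 0.0192). Zap70, the kinase recruited to the CD3 chains, rose by 0.43 ± 0.14 (adjusted p = 0.00766), with 6 of 7 arrays above all vehicle arrays, and Nkg7 rose by 0.18 ± 0.07 (adjusted p = 0.0278). The 4 CD3 chains gave 0 calls, with Cd3e at -0.11 ± 0.05 (adjusted p = 0.0980), and the coreceptors gave 0 as well, with Cd4 at 0.16 ± 0.07 (adjusted p = 0.0568) and Cd8a at -0.12 ± 0.06 (adjusted p = 0.110). Without any 1 of Nav arrays 40 and 42 or vehicle array 6, Klrd1 missed the threshold (adjusted p between 0.0527 and 0.0576), and Nkg7 without Nav arrays 40 or 47 or vehicle array 2 (adjusted p between 0.0625 and 0.0837).

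Second probe sets and control signals bear on the Nav calls of mesenteric node. The second probe set of Cd28 also fell, by 0.48 ± 0.17 (adjusted p = 0.0274). That of Trat1 gave -0.16 ± 0.11 (adjusted p = 0.341), the other 3 of Bcl11b gave -0.11, 0.22 and 0.15, and the other 2 of Themis gave -0.09 (below the filter) and -0.01, none of them called. With the mean of all probe sets of a gene, Bcl11b gave -0.04 (adjusted p = 0.692) and Themis -0.15 (adjusted p = 0.162). A probe set of Cd247 fell by 1.10 ± 0.27 (adjusted p = 0.00137) while the one used gave -0.01. The Cd247 probe sets not used had correlations of 0.42, 0.01 and 0.10 with the other T cell genes in this node, against 0.77 for the one used. Whether the one that fell reports Cd247 RNA was not tested. The hybridisation controls, which do not come from the tissue, read 11.65 ± 0.10 (SD, n = 7) under Nav and 11.43 ± 0.05 (SD, n = 8) in vehicle, and with their mean as a covariate Zap70 gave 0.29 (adjusted p = 0.205) and Klrd1 -0.13 (adjusted p = 0.230), smaller than before and not called. Markers of other cells moved with Nav in mesenteric node. Neutrophil genes rose, 2 of 2 tested (11 listed), with their mean between 5.04 and 9.75 against 4.74 to 6.26 in vehicle. Of 12 monocyte and macrophage markers 4 rose (Cd68, Cd14, C1qb and Csf1r), with their mean between 9.64 and 9.93 against 9.48 to 9.78. Of 9 stromal and endothelial markers 3 rose (Col1a1, Pdgfrb and Pecam1), 1 of 5 adipocyte markers rose (Lep), and of 12 B cell markers 2 rose and 1 fell. Across the 44 arrays the residual mean of the members had a correlation of -0.67 with the adipocyte mean and -0.40 with the stromal one. The part of these cells in the Nav calls was not tested.

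In jejunum, 1 member changed against vehicle. Prf1 ran from 8.37 to 8.73 in vehicle (median 8.59) and from 7.86 to 8.34 under Nav (median 8.14), without overlap, and fell by 0.46 ± 0.09 (adjusted p = 0.00520). The share of all genes without overlap is not given for jejunum, where 2.8% were called as fallen under Nav. DMF100 called 0.996% of all 10847 genes, DMF179.2 27.4%, MEF79.2 0.111%, the combination 3.84% and Nav 7.87%, and 0, 0, 0, 0 and 1 of 19 members were among them, with 1, 0, 0, 1 and 1 at an unadjusted p under 0.05, beside 1103, 4317, 1360, 2389 and 2860 of all genes. The hybridisation controls of vehicle jejunum, 11.77 ± 0.03 (SD, n = 8), were above those of each other group (means from 11.57 to 11.69), and with them as a covariate Prf1 gave -0.35 under Nav (adjusted p = 0.188). The second probe set of Prf1 lay at 2.84 in vehicle, below the filter, and gave -0.06 ± 0.05 under Nav.

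The absence of calls under DMF179.2 in jejunum has wide limits. Of the 19 members, 7 had a 95% interval within 1.5-fold of vehicle, beside 80.6% of all genes, and the median half-width of the interval was 0.59. Cd3e differed by 0.12 ± 0.17, Cd8a by 0.00 ± 0.32 and Gzma by -0.14 ± 0.40, and Klrd1 had the highest estimate at 0.47 ± 0.30 (adjusted p = 0.248). Between the doses of DMF, Bcl11b differed by -0.21 ± 0.06, DMF179.2 minus DMF100 (adjusted p = 0.0227, 11.6% of genes called). The DMF100 arrays ran from 11.08 to 11.22 and those of DMF179.2 from 10.68 to 11.08, with vehicle between 10.79 and 11.03. The residuals of this Bcl11b probe set had a correlation of 0.35 with the other T cell genes in jejunum. Whether its difference reports T cells was not tested.

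Cd2 of jejunum fell into a low and a high range that followed the level of B cell genes. Vehicle Cd2 ran from 4.65 to 6.33 (median 5.34), DMF100 from 4.86 to 7.30 (median 6.43) and the combination from 5.67 to 6.57 (median 6.40). The estimates of 0.87 ± 0.45 under DMF100 (adjusted p = 0.524) and 0.90 ± 0.42 under the combination (adjusted p = 0.198) were not called. The mean of the 11 tested B cell markers had a gap: 21 arrays lay between 4.91 and 5.57 and 22 between 6.59 and 8.49. Cd2 ran from 4.43 to 5.67 in the low set and from 5.97 to 7.96 in the high set, without overlap, whereas Cd3e ran from 9.27 to 10.49 and from 9.32 to 10.47. The high set held 2 of 8 vehicle arrays, 5 of 6 DMF100 arrays, 2 of 7 DMF179.2 arrays, 3 of 7 MEF79.2 arrays, 7 of 8 combination arrays and 3 of 7 Nav arrays. Within the high set Cd2 followed the B cell mean at a correlation of 0.75 (22 arrays) and within the low set at 0.37 (21 arrays), where Cd3e gave 0.38 and 0.61, as descriptions of arrays that share a normalization. The part of these B cell genes in the Cd2 estimates was not tested.

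**Figure D5:**
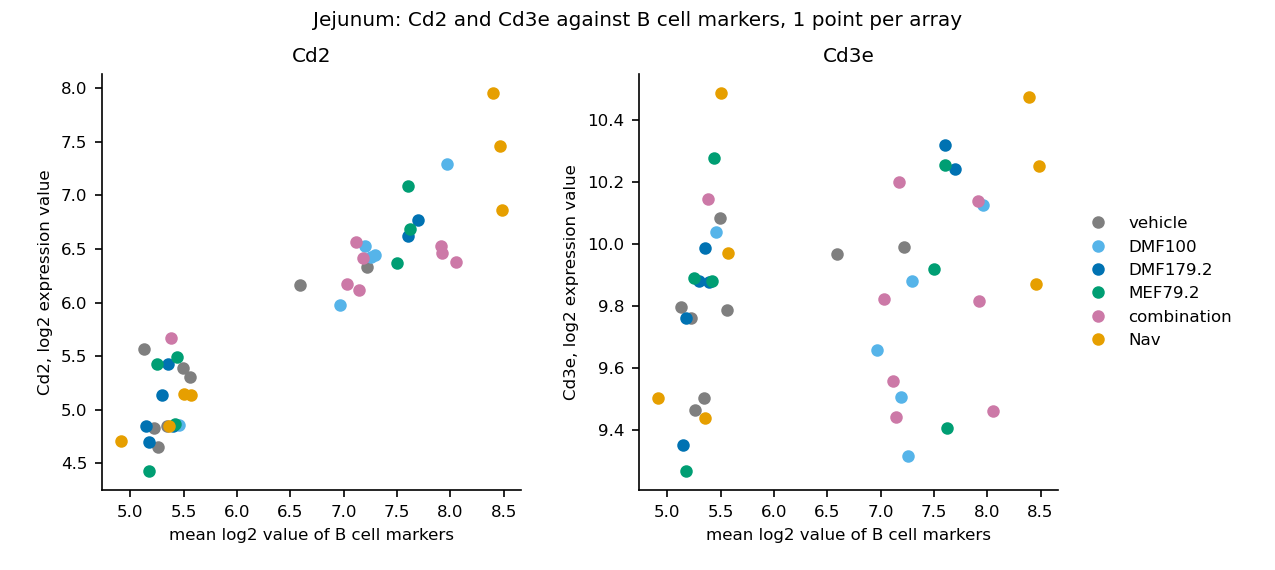
Log2 values of Cd2 (left) and Cd3e (right) against the mean log2 value of 11 B cell markers in jejunum, 1 point per array, coloured by group. Arrays fall to either side of a gap between 5.57 and 6.59 in the B cell mean; Cd2 is above 5.97 on the right side and below 5.67 on the left, and Cd3e covers the same range on both.

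Set against each other, the DMF groups differed in few members. DMF and the MEF salts differ in the alcohol of the ester and in having 1 or both acid groups esterified, and the doses allow 3 direct comparisons in each of 5 tissues: DMF179.2 with DMF100, DMF179.2 with the combination of equal mass, and the combination with the DMF100 it contains. The 4 calls, all lower under DMF179.2, are those of Prf1 (both comparisons) and Cd3g in spleen and Bcl11b in jejunum. The combination against DMF100 called 0 members in all 5 tissues, with 0% of genes in blood, 0% in spleen, 0.18% in inguinal node, 8.81% in mesenteric node and 0.157% in jejunum, and 9, 0, 2, 3 and 1 members at an unadjusted p under 0.05 by limma. Il2ra, the high-affinity IL-2 receptor chain, was nearest, at 0.30 in mesenteric node (adjusted p = 0.0519).

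Between the groups of equal mass, 0 members were called outside spleen, with 0% of genes in blood, inguinal node and jejunum and 0.00937% in mesenteric node. Unadjusted, 5 members of blood, 4 of inguinal node, 1 of mesenteric node and 0 of jejunum lay under 0.05. The 95% interval of Cd3e was -0.21 to 0.11 in blood, -0.15 to 0.10 in spleen, -0.27 to 0.02 in inguinal node, -0.06 to 0.17 in mesenteric node and -0.25 to 0.44 in jejunum. Gzmb of inguinal node had the highest estimate, 1.06 ± 0.26 (95% interval 0.53 to 1.58, adjusted p = 0.492). Between the doses of DMF alone, 0 members were called in blood (0% of genes), inguinal node (0.00947%) and mesenteric node (0.59%), with 1, 1 and 2 unadjusted.

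Whether a member responded differently from tissue to tissue was tested for the 17 members among the 8776 genes tested in all 5 tissues. The interaction gave 3 called members under Nav (46.7% of genes called). For the combination it gave 0 (4.02% of genes), as it did for DMF100 (1.23%), DMF179.2 (23.2%) and MEF79.2 (3.33%), with 2, 1, 0 and 1 members at an unadjusted p under 0.05 by limma. The response of Bcl11b to Nav was -0.44 in mesenteric node and between -0.08 and 0.04 in the other tissues (adjusted p = 0.000399). That of Prf1 was -0.46 in jejunum, -0.25 in spleen, -0.06 in inguinal node, -0.03 in blood and 0.00 in mesenteric node (adjusted p = 0.00108). That of Cd2 ran from -0.34 in blood to 0.63 in jejunum (adjusted p = 0.0443).

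Further T cell and NK cell genes outside the list were called in both directions. Of 30 further T cell genes, 25 were tested in spleen, where under DMF179.2 1 rose and 3 fell, with 24.4% of all genes called: S1pr1, the receptor that lets lymphocytes leave lymphoid organs, fell by 0.61 ± 0.11 (adjusted p = 0.000506), Fyn, a kinase of receptor signalling, by 0.24 ± 0.05 and the adaptor Lcp2 by 0.18 ± 0.06, and the surface marker Thy1 rose by 0.37 ± 0.11. Among 8 tested stromal and endothelial markers of spleen, Pecam1 fell by 0.41 ± 0.09, Kdr by 0.21 ± 0.07 and Pdgfrb by 0.22 ± 0.08, with no other called. Their part in the S1pr1 fall was not tested. Of 24 further NK cell genes, 18 were tested there, and the IL-18 receptor gene Il18r1 rose by 0.57 ± 0.14 while Klrb1f fell by 0.40 ± 0.11. In mesenteric node under Nav, 5 of 25 further T cell genes rose and 7 fell, with Satb1 falling by 0.79 ± 0.07, Fyn by 0.71 ± 0.07 and Ptpn22 by 0.26 ± 0.06 and the adaptor Grap2 rising by 0.57 ± 0.11. Of 17 further NK cell genes 3 rose and 4 fell, where 50.6% of all genes were called, led by Id2, a factor needed for NK cell development, which fell by 0.74 ± 0.10. Fyn and Satb1 were also lower in that node under the combination (12.7% of genes called), by 0.26 ± 0.07 and 0.29 ± 0.08. Fyn fell there by 0.20 ± 0.06 under DMF179.2 (7.88%). Under MEF79.2 (4.75%), Satb1 fell there by 0.33 ± 0.07, Zeb2 by 0.36 ± 0.09 and Id2 by 0.35 ± 0.10. In spleen under DMF100 (0.834%), Klrg1 fell by 0.46 ± 0.12. In jejunum under DMF179.2 (27.4%), Cd160 rose by 0.36 ± 0.12 and Irf8 fell by 0.57 ± 0.15. Of 11 tested monocyte and macrophage markers, C1qa fell there by 0.63 ± 0.13 and Cd14 by 0.80 ± 0.23, with no other called. Which cells the Irf8 fall comes from was not tested. Id2 and Prkcq rose in jejunum under Nav (7.87%), by 0.28 ± 0.09 and 0.38 ± 0.12. Blood gave 0 of 23 and 0 of 20 calls and inguinal node 0 of 23 and 0 of 19 under every treatment.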

How the data were processed

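The authors deposited log2 expression values of 308 HT MG-430 PM arrays from 7 tissues, and 5 tissues were used here. RMA, GCRMA, R 2.11.1 and limma 3.4.5 are named in the submitters' processing notes, with no statement of their roles. The array holds 45141 probe sets, of which 28898 have 1 gene symbol in the gene table, 551 have several and 15692 are unnamed here. Treatment groups follow the titles, because DMF100 and the combination carry identical text in one label field.

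For each tissue, limma 3.58.1 (R 4.3.3) was fitted to all tested genes with 1 mean for each of the 6 groups, and p-values were adjusted by Benjamini-Hochberg over those genes; a gene with an adjusted p under 0.05 was called. Errors after ± are SE unless marked SD. The tissue comparison was an interaction F test over 5 tissues. The script was tested on simulated data. The members and all gene lists were chosen with earlier results of these data known. Named genes were all members, with at most 4 called genes of another list per comparison, by smallest adjusted p. Alternatives changed the filter, centring, normalization, choice of probe set, arrays in the fit and weights. After the data were seen, the least correlated arrays were left out, single arrays were left out for called members, and control signal or erythroid level was added as a covariate. Number of arrays limits the precision.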

Additional observations from a re-analysis of the deposited data

Results flagged for a closer look

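Of 120 groups of arrays examined for an array far from the rest, 6 held one, where chance gives about 1 in 20. In spleen, Nav array 40 had a mean over members of -0.57 relative to vehicle, with the next lowest Nav array at -0.07. The same array was lowest for Cd2, at 11.26 with the next at 11.66, and for Cd3g, at 10.27 with the next at 10.86. In mesenteric node, DMF179.2 array 24 was highest for Cd28, at 9.20 with the next at 8.68, and for Trat1, at 6.85 with the next at 6.42. In the same tissue MEF79.2 array 30 was lowest for Trat1, at 5.74 with the next at 6.14.

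The response to Nav differed between tissues for Bcl11b (interaction test in limma, adjusted p = 0.000399), Prf1 (adjusted p = 0.00108) and Cd2 (adjusted p = 0.0443), beside 46.7% of the genes tested in all 5 tissues. Of these, the Bcl11b response of mesenteric node rests on 1 of 4 probe sets, and the Prf1 response of jejunum was not called with the hybridisation controls as a covariate.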

How the results depend on the processing

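The direction of every called member was kept in all alternatives that gave 1 value per gene. Taken singly, other probe sets of a gene could have the opposite sign, as for Bcl11b of mesenteric node under Nav. Prf1 of spleen under DMF179.2 kept its call in 25 of 25 (-0.38 to -0.31), Prf1 of spleen under Nav in 9 of 9 (-0.31 to -0.21), and Cd28, Klra9 and Trat1 of mesenteric node under Nav in 23 of 23 each. Klra9 has both group means there below the filter level, and only arrays outside Nav brought it into the test. Its kept calls do not lift that limit. Under Nav in mesenteric node Bcl11b and Themis lost theirs with the mean of all probe sets. The other calls were lost under 1 to 14 alternatives, most often Nkg7 (14 of 22), Cd2 (11 of 25), Ctla4 (10 of 25) and Ccl5 (9 of 22). The cause was not tested. Signs changed in 86 values of members that were not called, none larger than 0.163 in size.

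Counts of called members moved as follows. Array weights gave 1 in place of 0 in blood under Nav, 9 in place of 3 in spleen under DMF179.2, 12 in place of 1 under Nav, 5 in place of 0 under DMF100 and 2 in place of 0 under the combination, 5 in place of 1 for DMF179.2 against DMF100 and 7 in place of 2 against the combination, 4 in place of 0 in inguinal node under DMF179.2, 2 in place of 0 in mesenteric node for the combination against DMF100 and 1 in place of 0 in jejunum under DMF100. Without the filter, spleen gave 1 under DMF179.2, 0 against DMF100 and 1 against the combination, and mesenteric node gave 0 under the combination. Centring gave 1 in spleen under DMF179.2, 2 under Nav, 0 in mesenteric node under the combination and 0 in jejunum for DMF179.2 against DMF100. Quantile normalization gave 3 in spleen under Nav, 1 in inguinal node under DMF179.2 and 1 in mesenteric node under MEF79.2. The mean of all probe sets gave 5 in spleen under DMF179.2, 3 under Nav, 1 in mesenteric node under MEF79.2, and in jejunum 1 under DMF179.2 and 0 against DMF100. With only the groups compared, DMF179.2 against DMF100 gave 0 in spleen and 0 in jejunum, and in mesenteric node the combination gave 1 against vehicle and 1 against DMF100. Every probe set on its own gave 4 genes in spleen under Nav and 1 in jejunum under DMF179.2. In mesenteric node under the combination it gave 1, a fall of a Cd247 probe set (-1.01), while Ccl5 and Nkg7 were not called. That probe set is not the one used for Cd247, and whether it reports Cd247 RNA was not tested.

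With hybridisation controls as a covariate, spleen gave 2 under Nav, mesenteric node 1 for the combination against DMF100 and jejunum 0 under Nav. With the erythroid covariate, spleen gave 4 under Nav and 0 for DMF179.2 against DMF100 and against the combination. Leaving out 1 array at a time gave 1 to 6 in spleen under DMF179.2, 0 to 3 in mesenteric node under the combination and 7 to 10 under Nav. Without Nav array 40, spleen gave 6 under Nav, 3 for DMF179.2 against DMF100 and 4 against the combination, and without DMF179.2 array 23, mesenteric node gave 1 for the combination against DMF100.

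Title numbers are shared between tissues, but the residuals of same-numbered arrays did not correlate throughout (median 0.03 to 0.23, lowest -0.48, against medians of -0.04 to -0.01 between other numbers). With the number as a replicate block the tissue comparison gave 1 member under the combination in place of 0 and changed no other count. Centring moved the split of all called genes from 1778 up and 795 down to 2277 and 547 in spleen under DMF179.2, from 851 and 560 to 1384 and 337 under Nav, and from 745 and 518 to 1154 and 349 in jejunum for DMF179.2 against DMF100. Precision is limited by the number of arrays, by values near the lowest of a tissue and, in jejunum, by the spread of T cell genes between arrays.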
